A study of Mus musculus with 4 samples.

Results

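The core clock genes Arntl, Clock, Per1, Per2, Per3, Cry1, Cry2, Nr1d1, Nr1d2 and Dbp were examined in regulatory T cells (Tregs), a CD4 lineage that holds other immune cells in check. They were taken by symbol from a fixed list, and all 10 were found among the 24452 genes of the deposited table. RNA sequencing had been done on Tregs from the liver of young mice, with 2 libraries labelled Altre-WT and 2 labelled Altre-KO. The latter label stands for a knockout of Altre, a long non-coding RNA that Tregs express. The labels give neither the form of the deleted allele, the strain, the sex or the age in weeks, nor whether mice were pooled or were separate animals for each library. They also give no hour of day at which the livers were collected.

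The clock is a feedback loop of transcription that runs in nearly every cell of a mouse with a period of about a day. ARNTL (also called BMAL1) and CLOCK pair up and switch on genes that carry an E-box, among them the Per and Cry genes, whose proteins return to the nucleus and shut the pair off. In a second loop the pair drives Nr1d1 and Nr1d2, the genes of the nuclear receptors REV-ERB alpha and beta, which compete with ROR receptors at the Arntl gene and repress it. DBP is an output factor of the PAR bZIP family that acts on D-boxes, and NFIL3 represses at the same sites. In whole mouse liver Dbp, Nr1d1 and the Per genes swing widely over the day, and Arntl peaks when they are low.

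Letters that match these control elements lie next to some start sites of the members. RefSeq promoter windows (GRCm38.p6, 250 bases before to 50 after a start) were available for 9 members, all but Per2, with 13 windows in all. They were searched on both strands for the E-box CACGTG, for the D-box (TTATGTAA or TTACGTAA) and for the ROR response element. An E-box was found in windows of Per1 and Cry1, a D-box in that of Per3, where it occurs at 2 places, and a ROR element in a window of Arntl. Of all 32851 promoter windows of this length, 7.15% hold that E-box, 1.06% a D-box and 0.384% a ROR element. The matches are shown because the loop is known to act through such elements, in 30 bases each on the strand of the gene, with the motif in capitals.
Per1 E-box, 166 to 161 bases before the start (chr11:69098771-69098800, plus strand): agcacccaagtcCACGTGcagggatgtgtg
Cry1 E-box, 60 to 55 bases before the start (chr10:85185097-85185126, minus strand): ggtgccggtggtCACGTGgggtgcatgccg
Per3 D-box, 205 to 198 bases before the start (chr4:151044852-151044881, minus strand): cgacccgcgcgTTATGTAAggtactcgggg
Per3 D-box, 158 to 151 bases before the start (chr4:151044805-151044834, minus strand): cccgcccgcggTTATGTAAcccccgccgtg
Arntl ROR element, 26 to 36 bases after the start (chr7:113207528-113207557, plus strand): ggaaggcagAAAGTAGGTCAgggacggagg
A match is a description of the letters in these windows only.

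Levels are given in CPM, a gene's reads relative to all reads on listed genes of its library, brought to one common total. A single read was worth 0.306 to 0.547 CPM, and the libraries held an estimated 1828764 to 3266107 reads on listed genes, which were 18.8% to 32.8% of all their reads. Altre-KO replicate 1 had both the most such reads and the highest share. Treg markers were present in every library (Cd4 at 527 to 547 CPM). Altre-KO replicate 1 was the low library for Foxp3 (79.5 CPM against 140.4 to 162 CPM) and for Cd3e (53.9 CPM against 68.5 to 90.8 CPM). Il2ra was lowest there too (164 CPM against 190 to 213 CPM). Ikzf2 was nearly level (1226 CPM there against 1236 to 1272 CPM), and Ctla4, at 389 CPM, lay within the range of the others (329 to 411 CPM). The 6 Treg markers summed to 2447 CPM in that library, against 2590 to 2607 CPM. Of 10 hepatocyte markers, 6, albumin among them, were at 0 in all 4 libraries. The list was not empty, since Trf ranged from 25.15 CPM (Altre-WT replicate 1) to 44.7 CPM (Altre-KO replicate 1). Trf made up most of the list's sum in each library (26.24 to 44.7 CPM), and no other hepatocyte marker exceeded 1.27 CPM. The 10 markers of Kupffer cells and macrophages summed to 214 and 313 CPM in wild type and to 314 and 183 CPM in knockout, with Lyz2 the most abundant. The part of such cells in the clock gene levels was not tested. In bulk RNA, fewer cells of a type and less RNA per cell cannot be told apart.

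No core clock gene differed between the genotypes past the test's threshold. The test, limma on log2(CPM + 1), covered 9 members, since Nr1d1 lay below the filter on low values. It called 0 of the 9 in either direction at an adjusted p under 0.05, and 0 had an unadjusted p under 0.05. Over all 10486 genes tested, 0.0381% were called, none of them higher in knockout, and 3.66% had an unadjusted p under 0.05. Limma-voom on estimated reads called 0 members too. The limma adjusted p of each of the 9 was 0.999, and over the 9 members, the main setting and 13 alternatives the lowest was 0.842. Log2 fold changes, knockout minus wild type, were above 0 for 3 members and below 0 for 6, with a median of -0.02 against -0.01 over all genes tested. Those of Per1 and Nr1d2 turned to 0.010 with median-of-ratios size factors. A missed threshold does not show that the levels were alike. The 95% intervals show the differences that this fit allows. They rest on the spread between these libraries, drawn toward that of genes of like level. As ratios of knockout to wild type on the CPM + 1 scale they ran from 0.753 to 1.29 for Nr1d2, the narrowest on the log2 scale, from 0.761 to 3.19 for Per2 and from 0.401 to 1.75 for Per3.

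**Figure D1:**
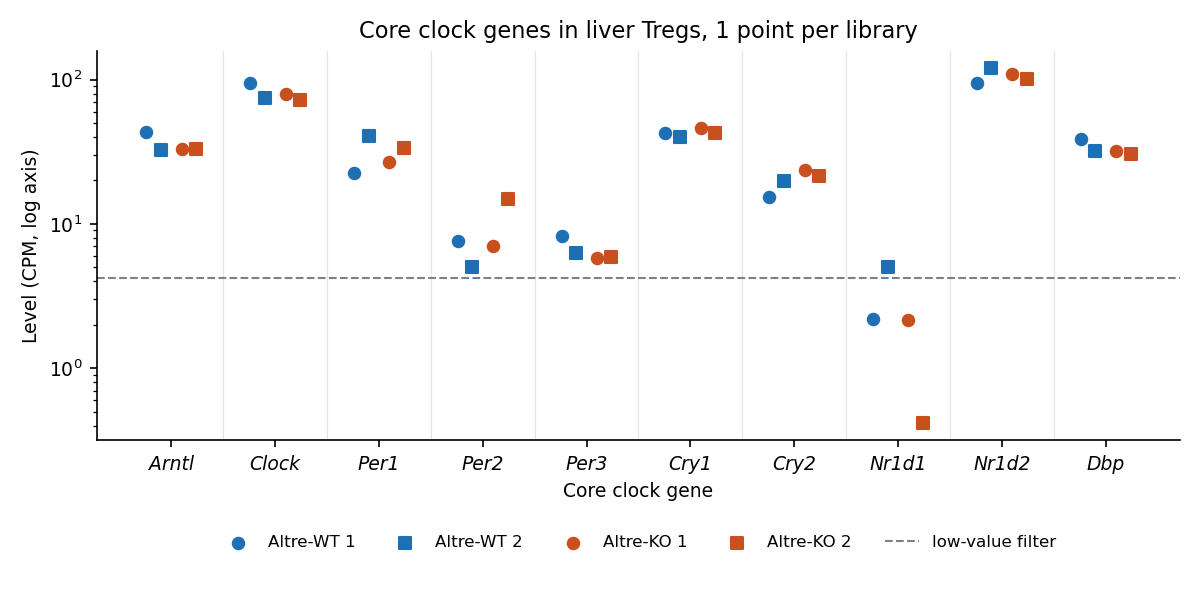
Level of each core clock gene (CPM, log axis) in the 2 Altre-WT libraries (blue) and the 2 Altre-KO libraries (orange), with 1 point per library and the low-value filter as a dashed line. Nr1d2 and Clock lie at 72.4 CPM or above in every library, while Nr1d1 reaches the filter in 1 library only.

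Arntl, the gene of the factor without which the loop stops, was at 43.2 and 32.4 CPM in the wild-type libraries and 32.8 and 33.0 CPM in the knockout libraries, from 79, 77, 107 and 78 estimated reads. Altre-WT replicate 1 was the high library, and the other 3 lay within 0.65 CPM of each other. The log2 fold change was -0.18 (SE 0.27, 95% interval -0.74 to 0.38), and was 0.022 without Altre-WT replicate 1. Clock, whose product is the partner of ARNTL, was at 95.1 and 74.0 CPM in the wild-type libraries and 79.9 and 72.4 CPM in the knockout libraries. Again Altre-WT replicate 1 was highest, and the genotypes overlapped. Its log2 fold change was -0.14 (SE 0.20, 95% interval -0.56 to 0.28), and was 0.040 without that library. In GRCm38 with the GENCODE M21 annotation, Arntl lies on chromosome 7 (113207465 to 113314126) and Clock on chromosome 5 (76209868 to 76304792), both protein-coding.

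The period genes encode the PER proteins, which carry the negative arm of the loop into the nucleus. Per1, on chromosome 11 (69095217 to 69109960), was at 22.4 and 40.8 CPM in the wild-type libraries and 26.6 and 33.5 CPM in the knockout libraries. Both knockout libraries thus fell between the wild-type libraries, which differed by 1.82-fold. The spread of Per1 within genotypes (SD 0.45 on the log2 scale) was above the trend for genes of its level (0.29), and the log2 fold change was -0.02 (SE 0.31). It changed sign with the library left out, from -0.44 without Altre-WT replicate 1 to 0.40 without Altre-WT replicate 2.

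Per2, on chromosome 1 (91415982 to 91459324), had the largest log2 fold change of the 9 in size, 0.64 (SE 0.50, 95% interval -0.39 to 1.68, limma adjusted p = 0.999, unadjusted 0.213). It was at 7.66 and 5.04 CPM in the wild-type libraries and 7.04 and 14.8 CPM in the knockout libraries. Only Altre-KO replicate 2 stood high, and Altre-KO replicate 1 lay between the wild-type libraries. These levels rest on 14, 12, 23 and 35 estimated reads. The exact Poisson 95% interval for the high library, 10.3 to 20.6 CPM, overlapped that of Altre-WT replicate 1, 4.19 to 12.9 CPM, and lay above that of Altre-WT replicate 2, 2.60 to 8.80 CPM. Such intervals cover counting error only. Without Altre-KO replicate 2 the log2 fold change was 0.15, and without Altre-KO replicate 1 it was 1.13.

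Per3, on chromosome 4 (151003652 to 151044665), was at 8.20 and 6.31 CPM in the wild-type libraries and 5.82 and 5.93 CPM in the knockout libraries. Both knockout values were below both wild-type values, by as little as 0.38 CPM, and the libraries held 15, 15, 19 and 14 estimated reads. A step of 1 read was 0.420 CPM in Altre-WT replicate 2, the nearer of the wild-type libraries. The log2 fold change was -0.25 (SE 0.51), and the fall did not pass the test.

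The cryptochromes are the repressors that act with the PER proteins on the ARNTL and CLOCK pair. Cry1, on chromosome 10 (85131700 to 85185064), was the steadiest of the 10 in CPM. Its libraries were at 42.6 and 39.9 CPM in the wild-type libraries and 46.2 and 42.3 CPM in the knockout libraries, a range of 1.16-fold from lowest to highest, and the genotypes overlapped on this scale. The log2 fold change was 0.10 (SE 0.24, 95% interval -0.41 to 0.60). Cry2, on chromosome 2 (92403646 to 92434043), was at 15.3 and 19.8 CPM in the wild-type libraries and 23.6 and 21.6 CPM in the knockout libraries. Both knockout libraries were above both wild-type libraries. The log2 fold change of 0.36 (SE 0.33, 95% interval -0.34 to 1.05) did not pass the test, and ran from 0.18 without Altre-WT replicate 1 to 0.53 without Altre-WT replicate 2. Cry2 shares 295 exon bases with D930015M05Rik on the opposite strand, which was at 1.64 CPM or less.

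Of the REV-ERB genes, Nr1d2 was among the abundant members and Nr1d1 rested on few reads. Nr1d2, on chromosome 14 (18204054 to 18239127), was at 94.6 and 119 CPM in the wild-type libraries and 109 and 101 CPM in the knockout libraries, from 173, 284, 356 and 238 estimated reads. Both knockout libraries lay between the wild-type libraries, and the log2 fold change was -0.02 (SE 0.19, 95% interval -0.41 to 0.37). Nr1d1, on chromosome 11 (98767932 to 98775333), was at 2.19 and 5.04 CPM in the wild-type libraries and 2.14 and 0.42 CPM in the knockout libraries. These are 4, 12, 7 and 1 estimated reads. Both knockout values were below both wild-type values, by 0.05 CPM at the nearest, less than 1 read. The exact Poisson interval of Altre-KO replicate 2 reached 2.34 CPM, above the values of Altre-WT replicate 1 and Altre-KO replicate 1 but below the interval of Altre-WT replicate 2, 2.60 to 8.80 CPM. With no filter on low values Nr1d1 had a log2 difference of -1.06 and a limma adjusted p of 0.925. Nr1d1 shares 263 exon bases with Thra, a nuclear receptor gene on the opposite strand that was at 19.8 to 25.2 CPM. The labels do not say whether counting used the strand, so reads of that stretch cannot be assigned, and the low values of Nr1d1 are uncertain.

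Dbp, the output factor, lies on chromosome 7 (45705088 to 45710203). It was at 38.9 and 31.8 CPM in the wild-type libraries and 31.9 and 30.3 CPM in the knockout libraries. Altre-WT replicate 1 was the high library, as for Arntl and Clock, and the other 3 lay close together. The log2 fold change was -0.17 (SE 0.27, 95% interval -0.73 to 0.39), and -0.032 without Altre-WT replicate 1. Its estimated reads (71.1, 75.7, 104.2 and 71.6) were fractional, while those of the other 9 members were whole within 0.02 of a read. Dbp shares 539 exon bases with Sphk2, a sphingosine kinase gene on the opposite strand at 46.8 to 66.4 CPM, so its level may hold or lack reads of that stretch.

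**Figure D2:**
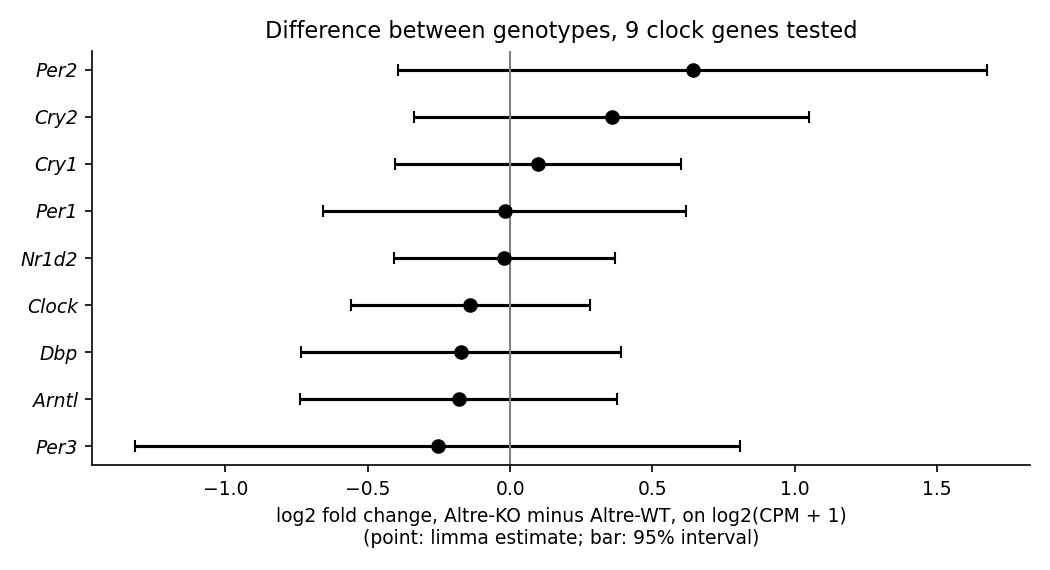
Log2 fold change of the 9 clock genes tested, Altre-KO minus Altre-WT on the log2(CPM + 1) scale, with points for limma estimates and bars for 95% intervals. Every interval includes 0, and those of Per2 and Per3, the members tested on the fewest reads, are the widest.

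The genotypes did not overlap for 3 of the 10 members, Cry2 (higher in knockout), Per3 and Nr1d1 (both lower). With median-of-ratios size factors or upper-quartile scaling there were 4, as Cry1 joined them, higher in knockout. Under these scalings the share over all genes tested was not counted, so this count has nothing to be set against. On the CPM scale the genotypes did not overlap for 2 of the 9 members tested, beside 30.8% of all genes tested. With 2 libraries against 2, an exact two-sided permutation test of a single gene cannot give a p below 0.333. Altre-WT replicate 1 was the highest library for Arntl, Clock, Per3 and Dbp and the lowest for Per1, Cry2 and Nr1d2. It was thus at an end of the range for 7 of the 9 members tested, and for 51.5% of all genes tested. That library held the fewest reads on listed genes, an estimated 1828764, and a single read was worth the most there (0.547 CPM). Altre-KO replicate 1 was at an end for 3 of the 9, and for 56.4% of all genes tested. In the authors' deposited table the adjusted p of all 10 members was 1, with log2 fold changes from -1.50 for Nr1d1 to 0.78 for Per2.

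Levels of different genes were set side by side per kilobase of exon, counted over all annotated exons, which may be longer than the transcripts present. On this scale Nr1d2 stood at the top in every library. Its level was 17.5 to 22.1 CPM per kilobase, above the range of Cry1 (11.96 to 13.8). The ranges of Cry1 and Dbp (10.1 to 12.997) overlapped. Clock (5.27 to 6.93), Per1 (3.98 to 7.24) and Arntl (4.30 to 5.74) followed below Dbp, with ranges that overlapped from one to the next. Cry2 (2.42 to 3.73) lay under Arntl, and its range touched that of Per2 (0.861 to 2.53). Nr1d1 (0.136 to 1.64) and Per3 (0.606 to 0.853) were the lowest by their means, and the range of Nr1d1 overlapped those of both Per2 and Per3.

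**Figure D3:**
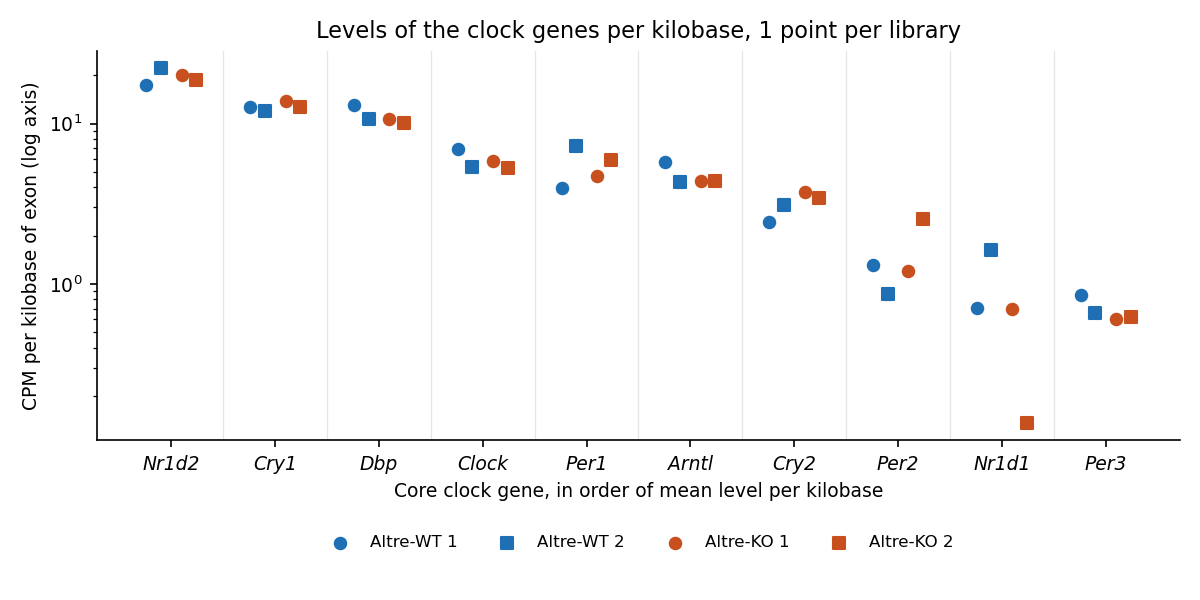
Level per kilobase of exon (CPM per kilobase, log axis) in the 4 libraries, with members ordered by their mean. Gaps with no overlap between neighbours lie between Nr1d2 and Cry1, between Dbp and Clock, and between Arntl and Cry2.

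Within families the balance between paralogs was uneven. Per kilobase, Cry1 was 5.27 and 3.82 times as abundant as Cry2 in the wild-type libraries and 3.71 times in both knockout libraries. Nr1d2 was 13.5 to 136 times as abundant as Nr1d1, with the top of that range set by the library in which Nr1d1 had a single read. Per1 was 3.04 and 8.41 times as abundant as Per2 in wild type and 3.94 and 2.35 times in knockout, so the genotypes overlapped. Clock was 1.20 to 1.34 times as abundant as Arntl.

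Each member was also set against Arntl within its library, as log2 of the ratio of (CPM + 1). Such a ratio depends little on how a library was scaled where both genes are well above 1 CPM, but more for Nr1d1, Per2 and Per3. Dbp and Arntl, which run in opposite phases in whole liver, kept almost the same ratio in all 4 libraries. The log2 ratio of Dbp to Arntl was -0.15 and -0.02 in wild type and -0.04 and -0.12 in knockout, a range of 0.12. Clock over Arntl was similarly even, with a range of 0.15, and so was Per3 over Arntl, with a range of 0.12. Per3 rests on only 14 to 19 estimated reads per library. How far counting error alone would spread these ratios, and how many other genes keep as even a ratio, was not tested. Per1 over Arntl moved more, from -0.92 in Altre-WT replicate 1 to 0.32 in Altre-WT replicate 2, with knockout at -0.29 and 0.02 in between. Nr1d2 over Arntl was at 1.11 and 1.85 in wild type and at 1.70 and 1.58 in knockout, and the genotypes overlapped.

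The genotypes did not overlap for 4 of the 9 ratios, and for 27.9% of the ratios to Arntl over all other genes tested (22.9% higher in knockout and 5.04% lower). Of the 4, those of Cry1, Cry2 and Per2 were higher in knockout and that of Per3 lower. Cry1 over Arntl was at -0.02 and 0.29 in wild type and at 0.48 and 0.35 in knockout. Cry2 over Arntl was at -1.44 and -0.68 in wild type and at -0.46 and -0.59 in knockout. Per2 over Arntl was at -2.35 and -2.47 in wild type and at -2.07 and -1.10 in knockout. For Cry1 and Cry2 the nearest libraries of the 2 genotypes were closer to each other than the wild-type libraries were. Per3 over Arntl was at -2.26 and -2.19 in wild type and at -2.31 and -2.30 in knockout, and with a pseudocount of 5 CPM its genotypes overlapped. All of these ratios share Arntl, whose high value in Altre-WT replicate 1 lowers every ratio of that library, and none was tested.

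**Figure D4:**
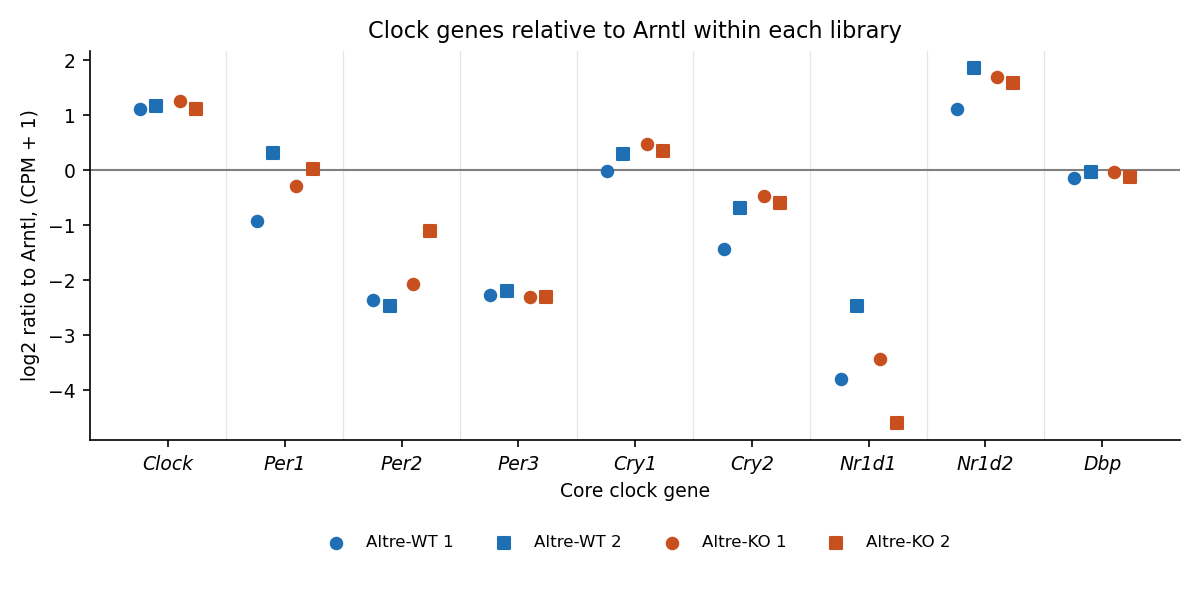
Log2 ratio of each clock gene to Arntl within a library, on (CPM + 1), with 1 point per library. Dbp, Clock and Per3 stay within 0.15 over the 4 libraries, while Per1, Per2 and Nr1d1 spread over 1.24 or more.

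Other transcription factors of the clock were next set beside the members. Of 11 listed, 4 were tested and 0 passed in either direction, with a median log2 fold change of 0.07. Rora, the gene of the ROR receptor that activates Arntl, was at 76.6 and 97.5 CPM in the wild-type libraries and 75.3 and 116 CPM in the knockout libraries. Tef, which encodes a PAR bZIP relative of DBP, was at 74.9 and 95.4 CPM in the wild-type libraries and 89.4 and 93.6 CPM in the knockout libraries. Nfil3, the gene of the D-box repressor, was at 22.4 and 29.9 CPM in the wild-type libraries and 22.7 and 20.3 CPM in the knockout libraries. For these 3 the genotypes overlapped, with log2 fold changes of 0.11, 0.11 and -0.26. The remaining tested member, Bhlhe40, which encodes a repressor at E-boxes, had a log2 fold change of 0.03. Npas2, the gene of a CLOCK stand-in, was at 1.26 CPM or less and Arntl2, the paralog of Arntl, at 0 in all 4 libraries. Bhlhe40, Npas2 and Arntl2 were named for their roles, after their values were seen.

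Kinases and ubiquitin ligases that act on clock proteins numbered 16, of which 13 were tested and 0 passed, 7 with a log2 fold change above 0 and 6 below, at a median of 0.03. Csnk1e, the gene of casein kinase 1 epsilon, which phosphorylates PER proteins, had the smallest p of the list. It was at 38.3 and 29.0 CPM in the wild-type libraries and 18.98 and 19.48 CPM in the knockout libraries, with a log2 fold change of -0.76 (SE 0.30, limma adjusted p = 0.999, unadjusted 0.0197). Both knockout values were below both wild-type values. Its close relative Csnk1d was at 182 and 139 CPM in the wild-type libraries and 143 and 152 CPM in the knockout libraries, and overlapped. Timeless, which encodes a partner of the replication fork and of clock proteins, was at 33.9 and 38.7 CPM in the wild-type libraries and 48.7 and 48.3 CPM in the knockout libraries (log2 fold change 0.41, limma adjusted p = 0.999, unadjusted 0.108). Gsk3b, the gene of a kinase that phosphorylates several clock proteins, had a log2 fold change of -0.28. Csnk1d was named for its role, after its values were seen.

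No cofactor of the clock factors passed the test. All 14 were tested and 0 passed, with 10 log2 fold changes below 0 and 4 above, beside 5466 below 0 among all 10486 genes tested. The median was -0.12 against -0.01 over all genes tested. Ncor1 encodes a corepressor through which the REV-ERB receptors act. It was at 447 and 450.2 CPM in the wild-type libraries and 298 and 420.4 CPM in the knockout libraries. Its log2 fold change of -0.34 (limma adjusted p = 0.999, unadjusted 0.0462) rested on Altre-KO replicate 1, and was -0.094 without it. Hdac3, the gene of the deacetylase this corepressor recruits, had a log2 fold change of -0.14, and was named for its role after its values were seen.

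Ep300, which encodes an acetyltransferase that works with ARNTL and CLOCK, was at 166 and 157 CPM in the wild-type libraries, at 86.3 CPM in Altre-KO replicate 1 and at 171 CPM in Altre-KO replicate 2. Crebbp, its paralog, was at 189 and 188 CPM in the wild-type libraries and 108 and 214 CPM in the knockout libraries, and Kmt2a, a histone methyltransferase gene, at 418 and 388 CPM against 226 and 455 CPM. Crebbp and Kmt2a were chosen after their values were seen. The log2 fold change of Ep300 was -0.41, and turned to 0.085 without Altre-KO replicate 1. That of Kmt2a was -0.33 over all libraries (limma adjusted p = 0.999, unadjusted 0.131). Without Altre-KO replicate 2 it was -0.83, a fit in which Altre-KO replicate 1 was the lone knockout library.

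Altre-KO replicate 1 was also low for genes with long exons in general. The 10140 tested genes with an annotated length were put in 4 classes. In Altre-KO replicate 1 the median log2 level relative to the mean of the other 3 libraries was 0.23 for genes with up to 2 kilobases of exon, and -0.14 above 8 kilobases. The same medians lay between -0.12 and 0.082 in the other libraries. Ep300 (14.3 kilobases), Crebbp (13.5), Kmt2a (16.7) and Ncor1 (12.8) belong to the longest class. In Altre-KO replicate 1 they were at -0.93, -0.86, -0.89 and -0.56 relative to the other 3 libraries, each lower than the class median. Clock, with 13.7 kilobases, belongs to that class too, and in Altre-KO replicate 1 it was at 0.00051 relative to the other 3 libraries. The part of length in the cofactor values was not tested.

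**Figure D5:**
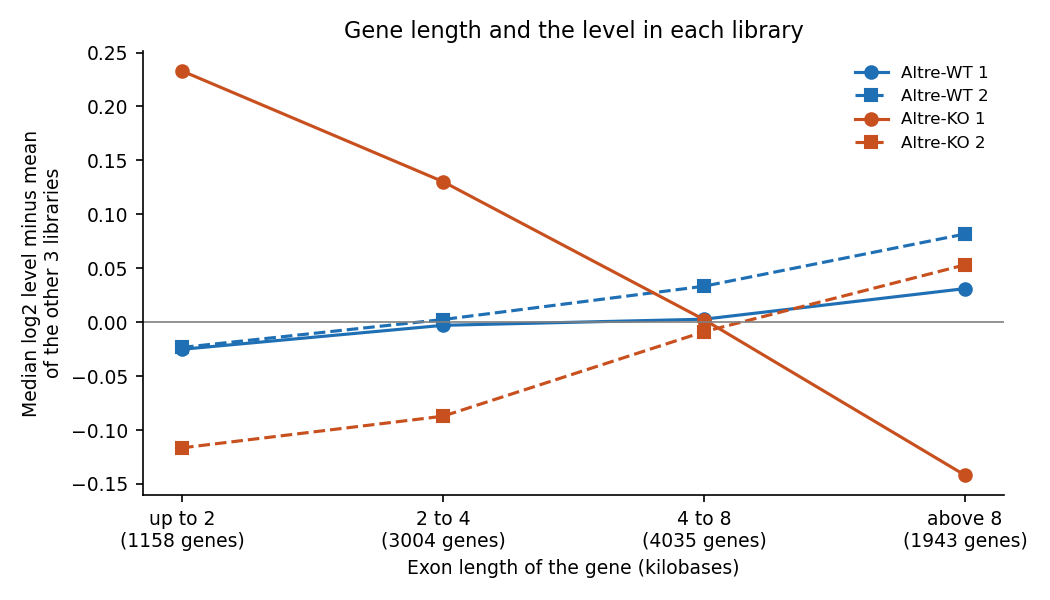
Median log2 level of genes in 4 classes of exon length, in each library relative to the mean of the other 3 libraries, with blue for Altre-WT and orange for Altre-KO. Altre-KO replicate 1 falls from 0.23 in the shortest class to -0.14 in the longest, and the other libraries stay between -0.12 and 0.082.

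Among 11 common clock output genes 9 were tested and 0 passed, with 6 log2 fold changes below 0 and 3 above, at a median of -0.08. Tsc22d3, a gene driven by both glucocorticoids and the clock in many tissues, was at 330 and 392 CPM in the wild-type libraries and 302 and 274 CPM in the knockout libraries. Both knockout values were lower, with a log2 fold change of -0.32 (SE 0.15, limma adjusted p = 0.999, unadjusted 0.0466). Noct, the gene of a rhythmic phosphatase called nocturnin, was at 21.9 and 28.2 CPM in the wild-type libraries and 15.0 and 19.9 CPM in the knockout libraries (log2 fold change -0.50). Por, the gene of cytochrome P450 reductase, had a log2 fold change of -0.27. Nampt, which encodes the NAD-salvage enzyme that the clock drives in liver, had 0.08 and Wee1, a mitotic kinase gene, -0.05, both named for their roles after their values were seen.

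Genes that tissue handling raises were listed as well, since Per1 also responds to acute stimuli. The 19 summed to 6440 and 7095 CPM in wild type and to 5885 and 5793 CPM in knockout. Of 17 tested, 12 had a log2 fold change below 0, beside 5466 of all 10486 genes tested. The median was -0.24 against -0.01 over all genes tested, and 2 passed, beside 0.0381% of all genes tested. Both, the heat-shock genes Hspa1a and Hspa1b, were lower in knockout. Hspa1a was at 117 and 325 CPM in the wild-type libraries and 17.8 and 29.8 CPM in the knockout libraries. Hspa1b was at 309 and 702 CPM in the wild-type libraries and 81.1 and 87.4 CPM in the knockout libraries. These 2 passed under every alternative run except limma without the variance trend. The immediate early gene Fos, chosen after its values were seen, was at 306 and 401 CPM in the wild-type libraries and 170.2 and 249 CPM in the knockout libraries. The genotypes thus overlapped for Per1 and did not for Fos, whose difference did not pass (log2 fold change -0.76, limma adjusted p = 0.683). The log2 fold change of Fos was -1.04 without Altre-KO replicate 2, a fit with a lone knockout library. A relation between Per1 and this list was not tested.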

How the data were processed

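Per the submitters' processing notes, the authors used STAR, cutadapt and DESeq2 with genome build mm10 (GRCm38); how reads were counted, and on which annotation, is not given in the sources used here. This deposited table holds RPM plus 0.0001, as read from the values, CPM per the file headers, each genotype's mean signal, and the authors' log2 fold change, p-value and adjusted p-value. The step of the RPM values gave estimated reads; 93.2% to 93.9% of values under 200 reads were whole within 0.02 of a read, so no count test was the main one. Estimated reads were used for limma-voom, an alternative, and for Poisson intervals of members whose reads were whole.

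Limma 3.58.1 (R 4.3.3, variance trend) was run on log2(CPM + 1) over 10486 genes in which at least 2 libraries reached 4.22 CPM, worth 10 estimated reads at the median depth. Group was the only term, with Benjamini-Hochberg adjustment over all genes tested at 0.05, and 20.8 prior degrees of freedom. The script was tested on simulated data. Where separate animals are not stated, p-values measure only the spread between these libraries. Fold changes understate low genes.

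The members and lists were chosen with earlier results of these data known. Named are all members and, in each other list, genes past the threshold or otherwise the 3 with the smallest p; others are marked, and 1 gene under this rule is not reported here. No genes of like pattern were sought, 4 libraries being too few. Altre itself was not analysed here, so genotypes are as labelled. Exon lengths are unions of GENCODE M21 exons. Figures were drawn with matplotlib 3.10.9.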

Additional observations from a re-analysis of the deposited data

How the results depend on the processing

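Alternatives were 2 other scalings, 2 other filters, 2 other pseudocounts, limma-voom, limma without the trend, the replicate number as a block and leaving out each library, where the lone library of a genotype is assumed to vary like the other genotype's. Under each, 0 core clock genes passed. Genes past the threshold over all genes tested (4) numbered 2 with a pseudocount of 0.1 CPM, 1 without the variance trend and 6 to 16 with a library left out. Higher in knockout were 1 with the replicate block and 0 to 11 with a library left out (16 and 11 without Altre-WT replicate 2), and the block gave 6 in all. The block rests on a number alone, as the difference between replicates 1 and 2 correlated at -0.010 across genes between genotypes. Fos passed with the block (adjusted p = 0.0346). Cofactors past the threshold numbered 0 to 1 with a library left out, and handling stress genes 0 without the trend. With median-of-ratios size factors the log2 fold changes of Per1 and Nr1d2 turned, both to 0.010. With a library left out, ranges that crossed 0 were -0.38 to 0.022 for Arntl, -0.32 to 0.040 for Clock, -0.44 to 0.40 for Per1, -0.19 to 0.15 for Nr1d2, -0.060 to 0.28 for Tef, -0.20 to 0.42 for Rora and -0.90 to 0.085 for Ep300. Mean log2 ratios to Arntl moved by more than their SD within genotypes for Nr1d1 (-2.46 at a pseudocount of 5 CPM against -3.57), Per3 (-2.41 at 0.1 CPM and -1.80 at 5 CPM against -2.26) and Clock (1.08 at 5 CPM against 1.16). Within that SD, Nr1d1 was at -4.19 at 0.1 CPM, and Per2 at -2.12 at 0.1 CPM and -1.60 at 5 CPM against -1.998. A larger pseudocount made each of these mean ratios smaller in size, and the cause of the other changes was not tested. With a mean of at least 20 CPM required, Per2, Per3 and Nr1d1 gave no value. Depth limits Nr1d1, Per2 and Per3 most, with 24, 84 and 63 estimated reads in all.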
